A study of Mus musculus with 6 samples.

Results

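The miR-148/miR-152 family comprised 3 mature miRNAs, miR-148a-3p (MIMAT0000516), miR-148b-3p (MIMAT0000580) and miR-152-3p (MIMAT0000162), which were selected by their miRBase identifiers from the 788 miRNAs listed in at least 1 library. All 3 were listed in every library. The data were 6 small RNA libraries of serum from healthy male and female 129/SVj mice, aged 2 to 9 months, prepared in pairs with the TailorMix, TruSeq or NEBNext kit (2 libraries each). No library came from a treated or diseased animal, so the kit is the only factor that the labels vary. The serum came from individual mice and is numbered 1 and 2 within each kit. The mouse behind each library is not named, so a difference between kits and a difference between mice cannot be told apart unless the numbers mark the same 2 sera in all kits. Likewise, the p-values measure the spread between these libraries, which may be technical.

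MiRNAs are short RNAs that guide Argonaute proteins to partly complementary sites in messenger RNAs, and mainly the seed, bases 2 to 8 from the 5′ end, decides which sites are bound. Members of a family share the seed and can therefore bind the same sites. The miR-148/miR-152 family is known for repressing Dnmt1, the maintenance DNA methyltransferase, and miR-148a-3p, an abundant liver miRNA, for repressing the LDL receptor. The sequences of the 3 members follow from 5′ to 3′ with the seed in capitals.
miR-148a-3p: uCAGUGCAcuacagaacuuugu
miR-148b-3p: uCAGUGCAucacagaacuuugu
miR-152-3p: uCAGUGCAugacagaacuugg

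All 3 were found by name in the RefSeq table of GRCm38.p6, and no other of its 1679 mouse mature miRNAs has the seed CAGUGCA. miR-148a-3p and miR-148b-3p are both 22 bases long with a GC content of 40.9%. Counted from 1 at the 5′ end, they differ by C9U and U10C (miR-148a-3p first), whereas their first 8 and last 12 bases are identical. miR-152-3p has 21 bases and a GC content of 47.6%, and differs from miR-148a-3p by C9U, U10G and U20G and from miR-148b-3p by C10G and U20G. Its last 4 bases are UUGG, and those of the other two are UUGU. The 3 members thus have the same 5′ end, and miR-148a-3p and miR-148b-3p also have the same 3′ end, the ends to which adaptors are joined when a small RNA library is made. These are the ends of the reference sequences, and those of the reads were not analysed. Whether sequence bears on the differences between kits was not tested.

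The genes of the family lie apart in the mouse genome. Mir148a (GRCm38, hairpin at chr6:51269812-51269910, minus strand) overlaps no other annotated gene in GENCODE M21. Mir148b (chr15:103285125-103285221, plus strand) lies within an intron of Copz1, and Mir152 (chr11:96850393-96850465, plus strand) within an intron of Copz2, in both cases on the strand of the host gene. Copz1 and Copz2 encode the zeta subunits of the COPI coat, which covers vesicles that return from the Golgi apparatus. The hairpins are printed from 5′ to 3′ with the counted 3′ arm in capitals, since they show which reads could belong to more than 1 member.
Mir148a hairpin: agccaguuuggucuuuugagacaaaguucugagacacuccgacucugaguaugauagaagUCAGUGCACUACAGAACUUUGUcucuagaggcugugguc
Mir148b hairpin: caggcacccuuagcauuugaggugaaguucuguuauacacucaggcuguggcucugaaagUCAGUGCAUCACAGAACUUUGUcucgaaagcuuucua
Mir152 hairpin: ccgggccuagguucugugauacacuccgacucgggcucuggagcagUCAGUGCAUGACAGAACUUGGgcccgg
Reads were mapped without mismatches and had at least 15 bases. Between the mature miR-148a-3p and miR-148b-3p, the longest shared run has 12 bases, so a read of 15 bases within the mature sequence spans positions 9 and 10 and matches only 1 of them. Between their hairpins the longest shared run has 15 bases (acagaacuuugucuc), and only a read of exactly these bases fits both. Shared runs with Mir152 are shorter, at 12 bases with Mir148a and 11 with Mir148b. How reads with several matches or with shifted ends were assigned is not given in the sources used here.

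The number of reads counted on miRNAs lay between 165139 and 351758 per library, and annotated reads (miRNAs and other small RNAs together) between 5144833 and 26256012. The miRNA reads served as the denominator of the shares. A count of 3 corresponded to between 0.000853% and 0.00182% of them, and every member exceeded that in every library. Intervals cover counting error only, because the reads carry no molecular identifiers and PCR copies count as separate reads. The TruSeq pair stood apart from its peers, with a chi-square per degree of freedom between replicates of 15.01 over all miRNAs, against 2.16 for NEBNext and 1.59 for TailorMix. miR-16-5p, a miRNA abundant in red cells, took 0.402% and 0.374% of miRNA reads in the NEBNext pair. Its shares were 3.22% and 2.81% in the TruSeq pair and 5.14% and 4.89% in the TailorMix pair. It was not among the markers planned for red cells, which could not be matched to counts and may order the kits otherwise. The order of miR-16-5p alone does not show how red cell RNA differed between the kits. The part of red cell RNA in the family's levels was not tested.

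miR-148a-3p dominated the family in every library, and its share of the miRNA reads fell from NEBNext over TruSeq to TailorMix. Counts of 4908 and 3474 were found in the NEBNext pair, 2452 and 1271 in the TruSeq pair and 168 and 130 in the TailorMix pair. As a share of miRNA reads these were 2.18% and 2.10% for NEBNext, 0.697% and 0.451% for TruSeq, and 0.0868% and 0.0660% for TailorMix. No 2 kits overlapped. The TruSeq pair lay below the NEBNext pair for 61.7% of the 360 miRNAs with 4 or more counts in 2 or more libraries, the TailorMix pair below the NEBNext pair for 52.8% and below the TruSeq pair for 30.6%. By abundance, miR-148a-3p ranked 14th and 15th among the 540 and 492 miRNAs listed with NEBNext, 27th and 30th with TruSeq, and 77th and 85th with TailorMix. The mean share was 2.14% ± 0.0558 for NEBNext, 0.574% ± 0.174 for TruSeq and 0.0764% ± 0.0147 for TailorMix (SD, n = 2 each). NEBNext thus gave a share 3.73-fold higher than TruSeq and 28.0-fold higher than TailorMix.

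The within-kit spread of miR-148a-3p was largest with TruSeq. There, replicate 1 had a share 1.55-fold that of replicate 2, which was beyond counting error (Fisher's exact test of the reads of these 2 libraries, two-sided, adjusted p = 8.39e-37 over 18 such tests). None of the other 17 tests of replicate pairs, on the members' shares and on their ratios, passed the threshold of 0.05 after adjustment. The difference between the kits was larger still, since even TruSeq replicate 1 reached less than the lower NEBNext library (2.10%).

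miR-148b-3p followed another order, with TailorMix between the other kits. It was counted 256 and 192 times in the NEBNext pair, 38 and 21 times in the TruSeq pair and 61 and 82 times in the TailorMix pair. The shares of miRNA reads were 0.114% (95% Wilson interval 0.101% to 0.129%) and 0.116% for NEBNext, 0.0108% and 0.00744% for TruSeq, and 0.0315% and 0.0416% for TailorMix. The TailorMix pair was thus higher than the TruSeq pair, as for 53.3% of all miRNAs tested, and lower than the NEBNext pair. The mean shares were 0.115% ± 0.00171, 0.00912% ± 0.00237 and 0.0366% ± 0.00715 for NEBNext, TruSeq and TailorMix (SD, n = 2 each). From TruSeq to TailorMix the mean share of miR-148b-3p was therefore 4.01-fold higher, while that of miR-148a-3p was 7.51-fold lower in TailorMix.

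miR-152-3p was the rarest member in every library. It had 186 and 130 counts in the NEBNext pair, 24 and 18 in the TruSeq pair and 23 and 20 in the TailorMix pair. These made up 0.0827% and 0.0787% of miRNA reads for NEBNext, 0.00682% and 0.00638% for TruSeq, and 0.0119% and 0.0102% for TailorMix. Again NEBNext was highest by far, and the other kits were close to each other. The 95% Wilson interval of TruSeq replicate 1 reached from 0.00459% to 0.0102% and that of TailorMix replicate 2 from 0.00658% to 0.0157%, so that these neighbours in the order overlapped in counting error. The mean shares were 0.0807% ± 0.00282, 0.00660% ± 0.000312 and 0.0110% ± 0.00122 for NEBNext, TruSeq and TailorMix (SD, n = 2 each).

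**Figure D1:**
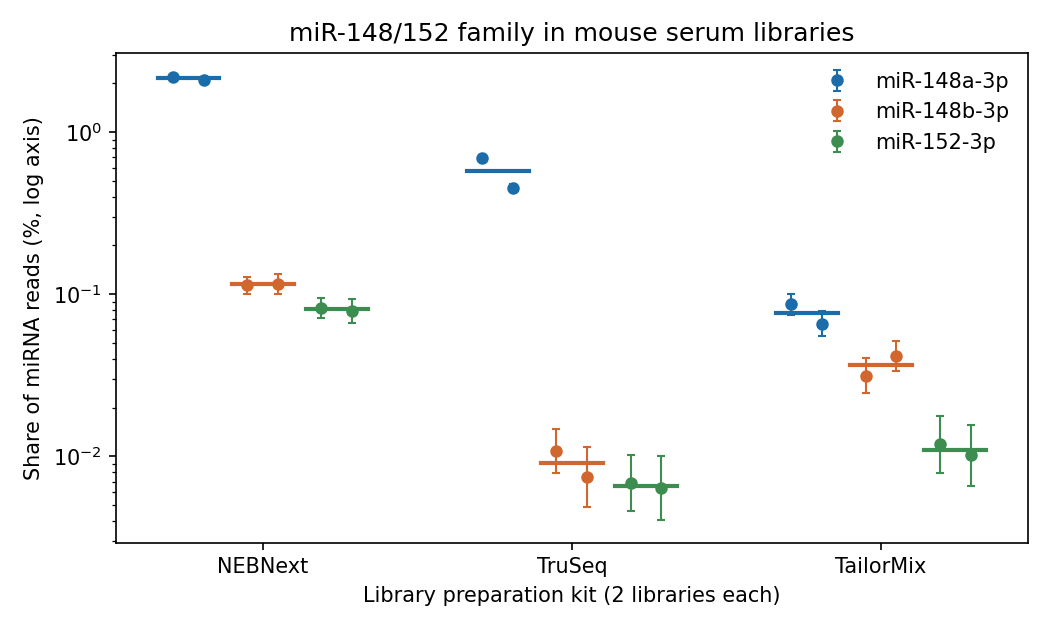
Share of miRNA reads (percent, log axis) of the 3 members in the 6 libraries, grouped by kit. Points are single libraries with 95% Wilson intervals of counting error and bars are kit means; miR-148a-3p runs from 2.18% down to 0.0660%, while miR-148b-3p is lowest with TruSeq.

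Across the 3 kits, the spread of each member's share between kits relative to that within kits exceeded that of every other way to divide the libraries into pairs (two-sided exact permutation test over 15 divisions, p = 0.067 for each of the 3 members and for their sum, the smallest p this design allows). The same held for 63.6% of all 360 miRNAs tested, so this property is common among serum miRNAs here. The family as a whole took 2.34% ± 0.0570 of miRNA reads for NEBNext, 0.590% ± 0.177 for TruSeq and 0.124% ± 0.00879 for TailorMix (SD, n = 2 each). Because miRNAs made up a different part of the annotated reads in each kit, the denominator mattered. Of annotated reads, miR-148a-3p took 0.0187% and 0.0205% with NEBNext and 0.0211% and 0.0135% with TruSeq, and these kits then overlapped, while TailorMix stayed lower at 0.00327% and 0.00245%. For miR-148b-3p the same denominator put TailorMix first, with 0.00119% and 0.00155% against 0.000975% and 0.00113% for NEBNext. This denominator raises all miRNAs of TailorMix relative to NEBNext, so the shift is not particular to miR-148b-3p. How many of all miRNAs then overlapped or turned was not counted.

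The make-up of the family was then compared within each library, which needs no scaling between libraries. miR-148a-3p supplied 91.7% and 91.5% of the family's reads with NEBNext and 97.5% and 97.0% with TruSeq, but only 66.7% and 56.0% with TailorMix. miR-148b-3p supplied 4.79% and 5.06% in the NEBNext pair, 1.51% and 1.60% in the TruSeq pair and 24.2% and 35.3% in the TailorMix pair. For miR-152-3p the shares of family reads were 3.48% and 3.42% for NEBNext, 0.955% and 1.37% for TruSeq, and 9.13% and 8.62% for TailorMix. In a TailorMix library the minor members thus held between 33.3% and 44.0% of the family's reads together, and in a TruSeq library at most 2.98%.

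**Figure D2:**
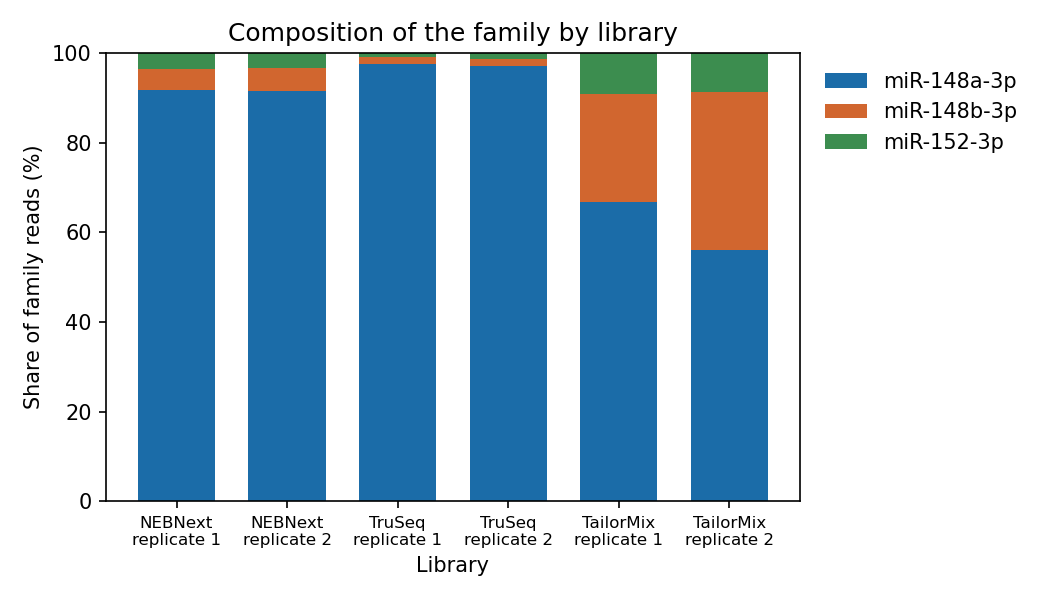
Percent of the family's reads taken by each member in each of the 6 libraries (stacked bars summing to 100%). miR-148a-3p takes over 91% with NEBNext and TruSeq, and 66.7% and 56.0% with TailorMix.

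The ratio of miR-148a-3p to miR-148b-3p, whose sequences differ only at positions 9 and 10, shifted most within the family. There were 19.2 and 18.1 reads of miR-148a-3p per read of miR-148b-3p in the NEBNext pair, 64.5 and 60.5 in the TruSeq pair and 2.75 and 1.59 in the TailorMix pair. The kits did not overlap, and the mean log2 ratio was 4.22 ± 0.060 for NEBNext, 5.94 ± 0.076 for TruSeq and 1.06 ± 0.56 for TailorMix (SD, n = 2 each). TruSeq and TailorMix therefore differed 29.5-fold in this ratio, a difference of 4.88 on the log2 scale. No other division of the libraries into pairs gave as large a spread between groups (two-sided exact permutation test, p = 0.067).

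The ratio of miR-148a-3p to miR-152-3p moved in the same order. It was 26.4 and 26.7 in the NEBNext pair, 102.2 and 70.6 in the TruSeq pair and 7.30 and 6.50 in the TailorMix pair, without overlap between kits. TruSeq and TailorMix differed 12.3-fold in this ratio (two-sided exact permutation test, p = 0.067).

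By contrast, the minor members kept closer to each other. The ratio of miR-148b-3p to miR-152-3p was 1.38 and 1.48 in the NEBNext pair, 1.58 and 1.17 in the TruSeq pair and 2.65 and 4.10 in the TailorMix pair. NEBNext and TruSeq overlapped, and the groupings of the libraries did not single out the kits (two-sided exact permutation test, p = 0.200). Both TailorMix libraries lay above all others. The mean log2 ratio was 1.26 higher with TailorMix than with TruSeq.

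**Figure D3:**
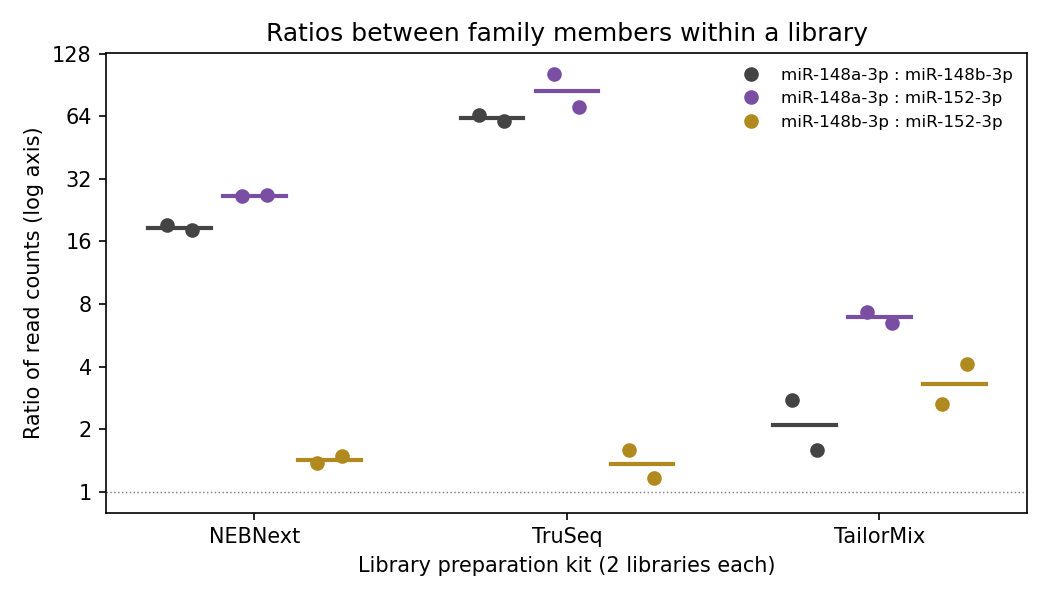
Ratio of the read counts of 2 family members within each library (log axis), by kit. Points are single libraries and bars their geometric means; both ratios with miR-148a-3p are highest with TruSeq and lowest with TailorMix, and the ratio of miR-148b-3p to miR-152-3p is highest with TailorMix.

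Such shifts were not particular to this family. Among all 10585 pairs of the 146 miRNAs with 4 or more counts in every library, TailorMix and TruSeq did not overlap in the log2 ratio of 91.1%, TailorMix and NEBNext in 91.7% and TruSeq and NEBNext in 91.6%. In 77.5% of pairs the permutation p over the 3 kits was at its minimum. The median absolute difference in log2 ratio between TailorMix and TruSeq was 2.51, against 4.88 for miR-148a-3p to miR-148b-3p, and 20.6% of pairs shifted at least as far. For miR-148b-3p to miR-152-3p, 73.0% of pairs shifted at least as far between the same kits. Between TruSeq and NEBNext this ratio moved by -0.076 on the log2 scale (0.14 without TruSeq replicate 2), and 98.3% of pairs shifted at least as far. For miR-148a-3p to miR-148b-3p, 64% of pairs shifted at least as far between TruSeq and NEBNext, and 34.9% between TailorMix and NEBNext. For miR-148a-3p to miR-152-3p, the share was 65.5% between TruSeq and NEBNext, 56.1% between TailorMix and NEBNext and 33.7% between TailorMix and TruSeq. These pairs share miRNAs and libraries and are given as a description.

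Differences between kits were next tested for every miRNA with edgeR's quasi-likelihood test on the counts, scaled by TMM, which assumes that most miRNAs do not differ. Of 360 miRNAs tested, 68.6% passed an adjusted p of 0.05 between TruSeq and NEBNext, 77.5% between TailorMix and NEBNext and 70.6% between TailorMix and TruSeq. With most miRNAs called, the assumption behind TMM is not borne out here. The TMM factors were 1.465 and 1.512 for NEBNext, 0.685 and 0.735 for TruSeq and 0.947 and 0.946 for TailorMix. Fold changes, SEs and p-values therefore hold only given this scaling. The family must be read against these high shares. All 3 members passed the test as lower with TruSeq than with NEBNext (miR-148a-3p not under upper quartile scaling), as did 42.5% of all miRNAs. All 3 also passed as lower with TailorMix than with NEBNext, which held for 38.3% of all miRNAs. Between TailorMix and TruSeq, miR-148a-3p was lower (28.9% of miRNAs), miR-148b-3p was higher (41.7% of miRNAs), and miR-152-3p did not pass the test.

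For miR-148a-3p, the log2 fold change was -0.82 (SE 0.14, adjusted p = 5.35e-06) from NEBNext to TruSeq, -4.16 (SE 0.17, adjusted p = 6.30e-21) from NEBNext to TailorMix and -3.34 (SE 0.17, adjusted p = 1.89e-18) from TruSeq to TailorMix. All of them depended on the scaling. Under upper quartile scaling the first was 0.061 (adjusted p = 0.601) and the last -4.12, and with the total of miRNA reads the first was -1.90 and the second -4.81. Without TruSeq replicate 1 it was -1.28 and without TruSeq replicate 2 it was -0.64. Among all miRNAs tested, 10.0% had a lower log2 fold change than miR-148a-3p from NEBNext to TailorMix and 12.5% from TruSeq to TailorMix. From NEBNext to TruSeq it lay near the middle of all miRNAs, with 47.5% below it.

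miR-148b-3p changed by -2.55 (SE 0.22, adjusted p = 2.54e-12) from NEBNext to TruSeq, by -0.998 (SE 0.19, adjusted p = 2.12e-05) from NEBNext to TailorMix and by 1.56 (SE 0.25, adjusted p = 2.27e-06) from TruSeq to TailorMix, on the log2 scale. The scaling moved these sizes but no call. From NEBNext to TruSeq the value was -3.62 with the total of miRNA reads and -1.66 under upper quartile scaling, from NEBNext to TailorMix -1.65 with the total, and from TruSeq to TailorMix 0.77 under upper quartile scaling. From NEBNext to TailorMix the value was -0.54 without TailorMix replicate 1 (adjusted p = 0.0259 in edgeR). Of all miRNAs, 30.3% had a lower log2 fold change from NEBNext to TruSeq, 41.1% from NEBNext to TailorMix and 61.9% from TruSeq to TailorMix.

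miR-152-3p had a log2 fold change of -2.53 (SE 0.24, adjusted p = 2.25e-11) from NEBNext to TruSeq and of -2.22 (SE 0.24, adjusted p = 5.21e-10) from NEBNext to TailorMix. The first was -3.60 with the total of miRNA reads and -1.64 under upper quartile scaling, and the second -2.87 with the total. From TruSeq to TailorMix it was 0.31 (SE 0.34, adjusted p = 0.410), with a 95% interval from -0.37 to 0.99. The counts behind this value were 18 to 24 per library. The value also turned with the scaling, to -0.47 under upper quartile scaling, and it passed the threshold at 0.73 with the total of miRNA reads (adjusted p = 0.0462). Under TMM, 31.1% of all miRNAs had a lower log2 fold change than miR-152-3p from NEBNext to TruSeq. From NEBNext to TailorMix it was 24.7%, and from TruSeq to TailorMix 46.9%.

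The family was also fitted as 1 feature, in a separate fit with the 3 members replaced by their sum. It changed by -1.05 (SE 0.10) from NEBNext to TruSeq and by -3.82 (SE 0.12) from NEBNext to TailorMix on the log2 scale. From TruSeq to TailorMix it changed by -2.77 (SE 0.12), with an adjusted p of at most 2.13e-20 in edgeR for all 3. That fit had its own TMM factors and its own pooled error. Its fold changes, SEs and p-values are therefore not on the same scale as those of the members. The call from NEBNext to TruSeq was lost under upper quartile scaling, at -0.095 (adjusted p = 0.414), and the value was -1.98 with the total of miRNA reads. From TruSeq to TailorMix the family changed by -3.45 under upper quartile scaling. The summed values mainly follow miR-148a-3p and hide the rise of miR-148b-3p between TruSeq and TailorMix. The median log2 fold change of the 3 members was -2.53, -2.22 and 0.31 in the same order of contrasts, and the median of all miRNAs tested was -0.52, -0.24 and 0.50. With the total of miRNA reads in place of TMM the median of all miRNAs moved to -1.48, -0.88 and 0.91. Relative to that of all miRNAs under TMM, miR-148a-3p stood at -0.29, -3.92 and -3.84, miR-148b-3p at -2.03, -0.76 and 1.05, and miR-152-3p at -2.01, -1.98 and -0.19. With the total of miRNA reads these relative values were -0.42, -3.92 and -3.82 for miR-148a-3p, -2.15, -0.76 and 1.06 for miR-148b-3p, and -2.12, -1.99 and -0.18 for miR-152-3p.

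**Figure D4:**
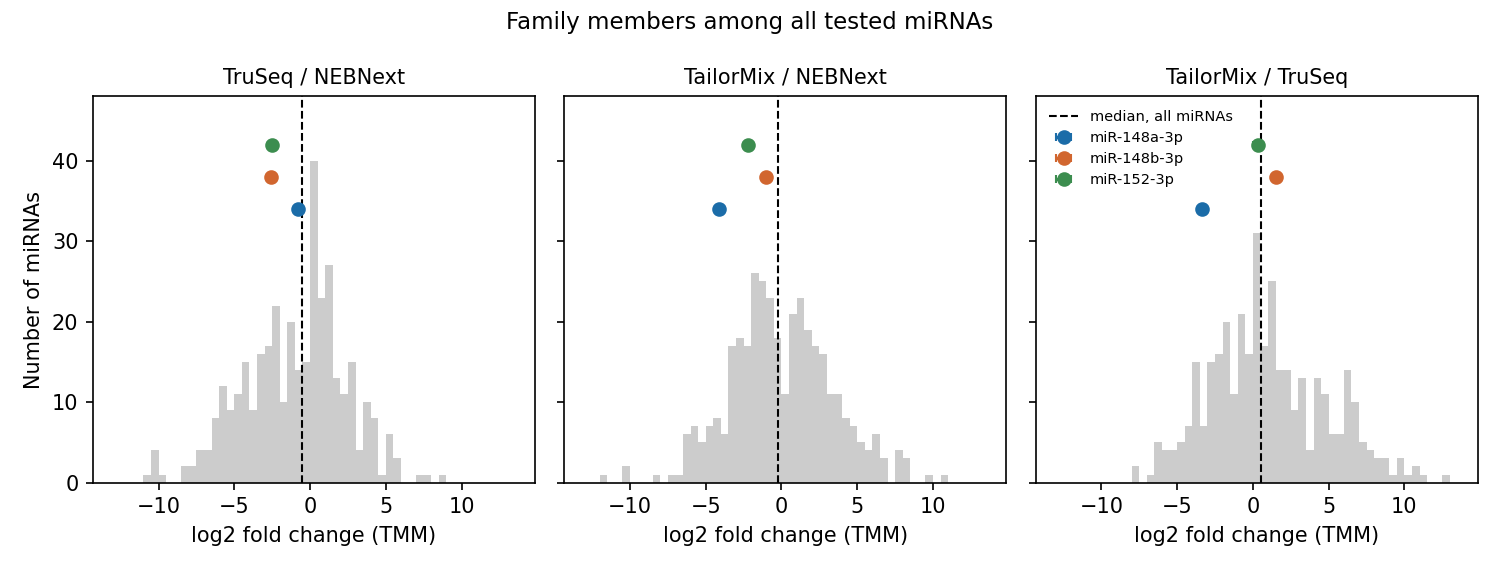
Log2 fold changes (TMM) of the 3 members, as coloured points with standard errors at arbitrary heights, over histograms of all 360 miRNAs tested in the 3 contrasts. The dashed line is the median of all miRNAs; miR-148a-3p lies at -4.16 from NEBNext to TailorMix and -0.82 from NEBNext to TruSeq.

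Finally, the pattern of each member over the 6 libraries was set beside those of all 146 miRNAs with 4 or more counts in every library, by the root mean square difference of log2 shares centred over the libraries. Neither miR-148b-3p nor miR-152-3p was among the miRNAs most like miR-148a-3p, at places 69 and 34 of the other miRNAs, with differences of 2.04 and 1.49. miR-148b-3p and miR-152-3p differed from each other by 0.620, at place 14 from miR-148b-3p and place 16 from miR-152-3p. A typical miRNA differed by a median of 2.06 from miR-148a-3p, 1.58 from miR-148b-3p and 1.59 from miR-152-3p. The files do not pair identifiers with names. The miRNA nearest to miR-148a-3p was MIMAT0000129, at 0.318, with 559 and 493 counts in the NEBNext pair, 449 and 278 in the TruSeq pair and 22 and 23 in the TailorMix pair. Nearest to miR-148b-3p was MIMAT0000529, at 0.224, with 501 and 308, 69 and 41, and 137 and 113 counts in the same order of kits. Both were picked for this likeness. The 6 libraries are 3 pairs, so the likeness rests on few separate points.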

How the data were processed

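Small RNA libraries of mouse serum were analysed from the read counts deposited by the authors, 1 list of miRNAs and 1 of other small RNAs per library. The authors trimmed adaptors (Cutadapt 1.8.1), mapped reads without mismatches (Bowtie 1.1.2) and annotated them by position on GRCm38. The counts are not normalized. A miRNA not listed was taken as 0.

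Kit and replicate were taken from the labels. Shares and ratios (0.5 added to each count on the log2 scale) were compared by exact permutation tests over 15 groupings, and miRNAs reaching 4 counts in 2 or more libraries were all tested with edgeR 4.0.16 (R 4.3.3; TMM, kit as the only term, Benjamini-Hochberg adjustment). On counts simulated for TruSeq against NEBNext with a 4-fold change, 73 of 88 changed miRNAs passing the filter were called, none in the wrong direction, and 8 of 248 unchanged ones. In the simulation most miRNAs were unchanged, TailorMix was like NEBNext, and all kits had the same spread. In the data most miRNAs were called and the TruSeq pair varied more. The simulation thus checks the code and gives no error rate for the contrasts here. Other scalings, filters, DESeq2 1.42.0, a replicate block, other denominators and fits without single libraries were run as alternatives. Python 3.11.15, scipy 1.17.1 and matplotlib 3.10.9 were used.

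The members and lists were chosen with earlier results of these data known. By rule the text names the members, their opposite arms, miRNAs with a shifted seed, blood cell markers and the 3 miRNAs most like each member. Identifiers other than the members' and that of miR-16-5p, which the study gives, could not be paired with names, so arms, shifted seeds and markers were not analysed here, and 2 of the nearest miRNAs are given by identifier.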

Additional observations from a re-analysis of the deposited data

How the results depend on the processing

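Under upper quartile scaling the log2 fold change from NEBNext to TruSeq was 0.061 for miR-148a-3p and -0.095 for the family (adjusted p = 0.414), and that of miR-152-3p from TruSeq to TailorMix was -0.47, which with the total of miRNA reads was 0.73. Of the called miRNAs, the share higher in the first-named kit changed with the scaling. It was 38.1% for TruSeq against NEBNext, 50.5% for TailorMix against NEBNext and 59.1% for TailorMix against TruSeq under TMM. With the total of miRNA reads it was 24.2%, 38.6% and 66.3%, and under upper quartile scaling 53.4%, 51.6% and 46.2%. With annotated reads as the denominator, the log2 ratio of mean shares between TruSeq and NEBNext was -0.18 for miR-148a-3p, -1.94 for miR-148b-3p, -1.89 for miR-152-3p and -0.27 for the family. Between TailorMix and NEBNext it was -2.78, 0.38, -0.84 and -2.20, so that miR-148b-3p turned, and between TailorMix and TruSeq 1.05 for miR-152-3p. Without the leading miRNA of each kit, miR-152-3p stood at -3.46 between TruSeq and NEBNext.

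Leaving out single libraries changed no call of a member or of the family in edgeR. The adjusted p of miR-148b-3p from NEBNext to TailorMix reached 0.0259, with log2 fold changes from -1.23 to -0.54. The difference between TruSeq and NEBNext in the log2 ratio of miR-148b-3p to miR-152-3p ran from -0.29 to 0.14, the latter without TruSeq replicate 2. DESeq2, RLE size factors, other filters and fits of only 4 libraries kept every call and direction of the members. With the replicate number as a block, 232, 250 and 235 miRNAs were called against 247, 279 and 254 without it, in the order of the contrasts above, and no call of a member changed. The differences between replicates 1 and 2 correlated across 146 miRNAs at -0.0435 for TruSeq with NEBNext, 0.129 for TailorMix with NEBNext and 0.0284 for TailorMix with TruSeq. Such low values cannot decide whether the numbers mark the same sera, since counting error can hide a shared difference. The main fit was planned without a block. miR-152-3p rests on 18 to 24 counts per library with TruSeq and TailorMix.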
